A study of Mus musculus with 11 samples.

Results

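The genes followed here mark the first steps toward red cells and platelets, and they were measured in bone marrow stem and progenitor cells of 3 p53 genotypes. They were taken from the RNA-seq count table by symbol, and all 10 were found among its 12647 genes. On the erythroid side stood the regulators Gata1, Klf1, Zfpm1 and Nfe2 and the carbonic anhydrases Car1 and Car2, and on the platelet side Pf4, Ppbp, Gp1bb and Gp5. The cells were Lin-Sca1+ Kit+ (LSK) cells, the sorted fraction that holds the hematopoietic stem cells and the multipotent progenitors, from young, tumor-free mice on a C57BL/6 background. Each genotype had 3 libraries.

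The p53+/+ mice carried a humanized p53 allele (HUPKI) in which the mouse gene encodes mostly human p53 sequence. The p53R248W/+ mice were heterozygous for a missense change of the DNA-binding domain placed in that humanized allele and expressed from the endogenous mouse Trp53 promoter, and the p53-/- mice lacked p53. The humanized allele was therefore shared by the p53+/+ and p53R248W/+ libraries, and the background of the null allele beyond the strain is not given in the sources used here. No treatment was given in the labels. The labels did not say whether the libraries came from separate animals, so that the p-values below measure the spread between these libraries, which may be technical.

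Stem and progenitor cells transcribe genes of several blood lineages at low level before they commit, a state known as lineage priming. GATA1, with its cofactor FOG1 (encoded by Zfpm1), and KLF1 switch on the red cell program, while GATA1, FOG1 and NF-E2, whose p45 subunit is encoded by Nfe2, drive the maturation of megakaryocytes and the release of platelets. Car1 and Car2 encode carbonic anhydrases that are abundant in red cells, Pf4 and Ppbp encode chemokines stored in platelet granules, and Gp1bb and Gp5 encode parts of the platelet receptor for von Willebrand factor.

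Library totals lay between 18021375 and 29750702 counts. Trp53 itself was at 125, 207 and 376 CPM, the normalised count scaled to a common library size, in the p53+/+ libraries, between 219 and 240.5 CPM in the p53R248W/+ libraries and between 112 and 129 CPM in the p53-/- libraries. Reads were thus still counted on the gene in the null cells, at levels that overlapped the lowest p53+/+ library, and the humanized alleles hold human sequence in place of part of the mouse gene, so that Trp53 was a weak check of the labels. Markers of the LSK gate (Kit, Ly6a and 7 others) summed to between 3329 and 4344 CPM in all 9 libraries. In contrast, 5 granule genes of mature neutrophils (S100a8, S100a9, Ltf, Camp and Ngp) summed to 3297 CPM in p53+/+ replicate 2 and 2114 CPM in p53R248W/+ replicate 2 and to between 8.0 and 118 CPM in the other 7 libraries. The calls below are therefore also given without these 2 libraries. Genes of maturing red cells were low and uneven: Slc4a1, the red cell anion exchanger, lay between 0 and 10.6 CPM and Alas2, the erythroid enzyme of heme synthesis, between 0.504 and 53.9 CPM. Hemoglobin genes were not analysed here.

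The members differed widely in level. Per kilobase of gene length, Car2 was the most abundant in p53+/+ cells at 442 ± 66.7 CPM per kb (SD, n = 3), followed by Nfe2 at 163 ± 18.9 and Pf4 at 45.3 ± 14.3. Car1 and Zfpm1 came next, both at 25.7 CPM per kb, with SDs of 6.85 and 3.36 that left them indistinguishable. Ppbp followed at 9.13 ± 8.89, Gata1 at 8.91 ± 1.59, Gp5 at 6.50 ± 0.697, Klf1 at 4.52 ± 0.372 and Gp1bb at 2.48 ± 1.20 CPM per kb. At 1 SD, Pf4 overlapped with Car1 but not with Zfpm1, and Ppbp overlapped with all 4 genes after it, while those 4 did not overlap with each other in this order. Thus, the 2 most abundant members were an enzyme and a regulator shared with other cells, and Klf1 and Gp1bb were at the bottom of the order. The order did not follow lineage restriction, as Pf4, a gene of platelet granules, stood above both Zfpm1 and Gata1. The lowest counts were 23 for Ppbp, 29 for Gp1bb and 58 for Klf1 in a single library, which limits the precision of those 3 genes.

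**Figure D1:**
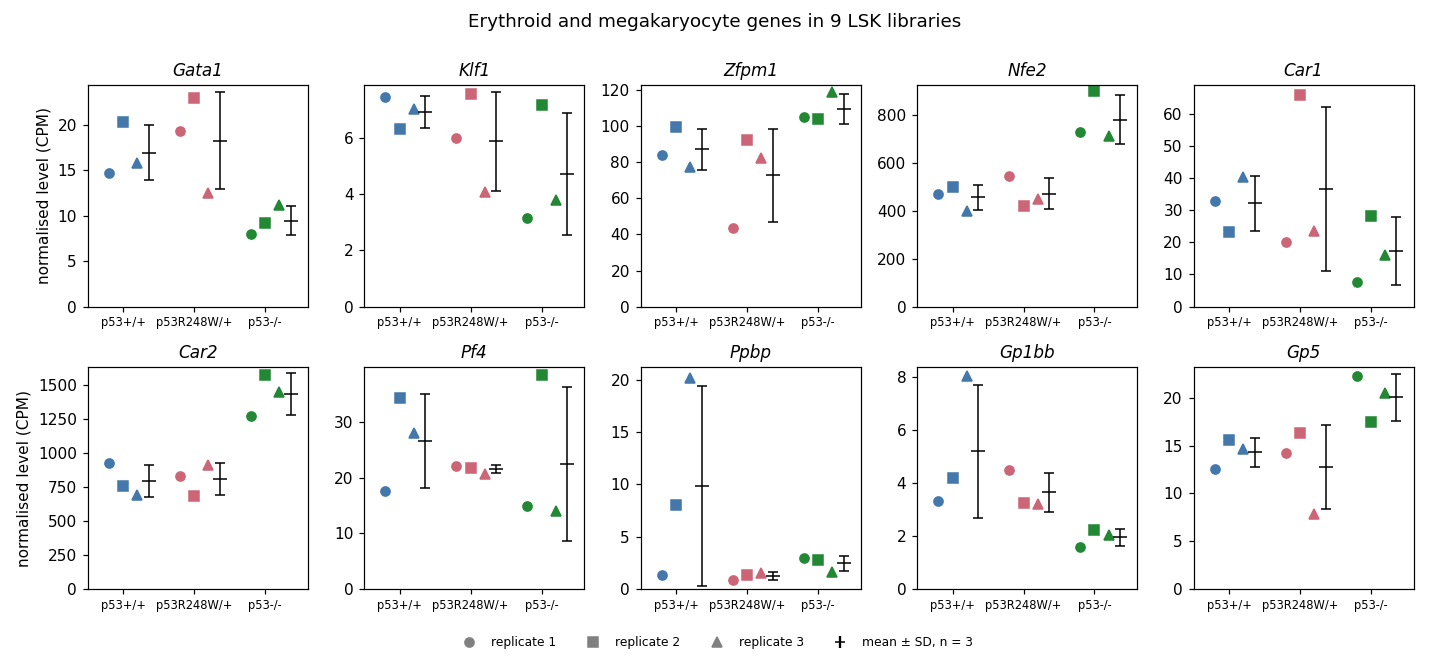
Normalised level (CPM, linear axis from 0) of the 10 genes in the 9 libraries, 1 point a library, with the mean and SD of each genotype (n = 3). The 3 p53-/- libraries of Car2 (1268 to 1572 CPM) and Nfe2 (714 to 901 CPM) sat above the 6 others, and the p53+/+ points of Ppbp ran from 1.31 to 20.2 CPM.

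The gene that encodes GATA1 is on chromosome X (GRCm38, 7959260 to 7978071, minus strand). Gata1 was at 14.7, 20.4 and 15.8 CPM in the p53+/+ libraries, at 19.3, 23.0 and 12.5 CPM in the p53R248W/+ libraries, and at 8.0, 9.17 and 11.1 CPM in the p53-/- libraries. All 3 null libraries were below all 6 others. In p53-/- cells the level was 1.79-fold below that of p53+/+ cells on the fitted scale (log2 fold change -0.84, SE 0.27), but the adjusted p of 0.0965 (edgeR quasi-likelihood test, Benjamini-Hochberg over 12625 genes) did not pass 0.05. DESeq2 on the same counts gave an adjusted p of 0.0364 for the same difference. Against p53-/- cells, p53R248W/+ cells were at 1.93-fold (log2 fold change 0.95, SE 0.27, adjusted p = 0.0752 by edgeR and 0.0157 by DESeq2), and the p53R248W/+ and p53+/+ libraries overlapped (0.11, SE 0.27). For this and all later results, fewer cells of a type and less RNA per cell cannot be told apart in bulk samples.

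GATA1 is also used by eosinophils and mast cells, and their genes were not even across these libraries. Prg2, the eosinophil granule major basic protein, was at 484 CPM in p53+/+ replicate 2 and 290 CPM in p53R248W/+ replicate 2, the 2 libraries with the highest Gata1 (20.4 and 23.0 CPM). It was also at 142 CPM in p53-/- replicate 2, where Gata1 was at 9.17 CPM, and between 1.67 and 19.1 CPM in the other 6 libraries. All 10 genes of the mast cell, basophil and eosinophil list were tested and summed to between 42.2 and 872 CPM in p53+/+, 60.9 and 588 CPM in p53R248W/+ and 35.6 and 291 CPM in p53-/- libraries, and Epx, which encodes eosinophil peroxidase, had 0 counts in 1 library of each genotype. Without the 2 granulocyte-high libraries these sums were 42.2 and 83.4 CPM in p53+/+ and 77.7 and 60.9 CPM in p53R248W/+ libraries. Leaving out both of these replicate 2 libraries changed the Gata1 difference of p53-/- against p53+/+ cells from -0.84 to -0.69 on the log2 scale (adjusted p = 0.340 by edgeR). The null library with the sum of 291 CPM, p53-/- replicate 2, stayed in that fit. The part of eosinophils and mast cells in the Gata1 level was not tested.

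Upstream sequence of Gata1 is shown because it holds 3 matches to CCNCNCCC, a pattern for the CACCC box, the kind of element that KLF1 binds. It covers the 250 bases before the RefSeq start (GRCm38.p6, chrX:7967911-7968160, minus strand, printed 5′ to 3′ along the gene), with the matches to CCNCNCCC in capitals. The start lies inside the annotated gene, between exons of its longer transcripts.

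Gata1: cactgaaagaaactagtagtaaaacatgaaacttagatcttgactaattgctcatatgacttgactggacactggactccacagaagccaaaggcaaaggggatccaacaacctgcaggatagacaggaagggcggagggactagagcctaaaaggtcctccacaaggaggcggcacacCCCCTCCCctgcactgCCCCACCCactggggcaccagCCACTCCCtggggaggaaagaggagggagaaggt

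KLF1 is encoded on chromosome 8 (84901928 to 84905291, plus strand). Klf1 was at 7.46, 6.33 and 7.03 CPM in p53+/+, 6.00, 7.56 and 4.07 CPM in p53R248W/+ and 3.16, 7.18 and 3.78 CPM in p53-/- libraries. The null libraries fell into 2 low values and 1, replicate 2, that was level with the controls, so the genotypes overlapped. The fitted difference of p53-/- from p53+/+ cells was -0.56 (log2, SE 0.37, adjusted p = 0.391, edgeR), and the fit that left out p53-/- replicate 2 gave -0.998 (adjusted p = 0.173).

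Upstream of Klf1, a single GATA motif was found 80 to 75 bases before the RefSeq start on the minus strand (TGATAA, read here as its complement in capitals). The 196 bases shown (GRCm38.p6, chr8:84901732-84901927, plus strand) end 1 base before the first annotated exon base.

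Klf1: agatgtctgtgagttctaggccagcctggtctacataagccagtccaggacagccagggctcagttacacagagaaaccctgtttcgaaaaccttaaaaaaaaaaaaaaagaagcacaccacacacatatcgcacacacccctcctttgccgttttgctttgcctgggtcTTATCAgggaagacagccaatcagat

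FOG1, the GATA1 cofactor, is encoded by Zfpm1 on the same chromosome (122282141 to 122337251, plus strand). Zfpm1 was at 84.2, 99.7 and 77.5 CPM in p53+/+ libraries, at 43.5, 92.3 and 82.3 CPM in p53R248W/+ libraries, and at 105, 104 and 119 CPM in p53-/- libraries. The null libraries were the 3 highest of the 9, opposite in order to Gata1, but the differences did not pass the test (0.33, SE 0.24, adjusted p = 0.443 against p53+/+, and 0.192 for p53R248W/+ against p53-/-, both edgeR). The single low value, 43.5 CPM, was p53R248W/+ replicate 1, the deepest library. Of 25 further regulators listed below, this library held the lowest value of the 9 for 12 and the highest for 0. Zfpm1 shares 55111 bases with the annotated gene Gm20388 on the same strand, so reads counted for it could come from either.

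Nfe2, the p45 subunit gene, rose in p53-/- cells. On chromosome 15 (103248212 to 103258403, minus strand), it was at 471, 501 and 398 CPM in p53+/+ libraries, at 545, 422 and 449 CPM in p53R248W/+ libraries and at 730.1, 901 and 714 CPM in p53-/- libraries. Every null library was above every other library. The null level was 1.71-fold that of p53+/+ cells (log2 fold change 0.78, SE 0.17, adjusted p = 0.0354, edgeR), and p53R248W/+ cells stood below p53-/- cells by -0.73 (SE 0.17, adjusted p = 0.0424). Between p53R248W/+ and p53+/+ cells the difference was 0.05 (SE 0.17).

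Car2, carbonic anhydrase II, rose with it. The gene is on chromosome 3 (14886273 to 14900770, plus strand), and it was at 923, 757 and 692 CPM in p53+/+ libraries, at 832, 681 and 909 CPM in p53R248W/+ libraries, and at 1268, 1572 and 1449 CPM in p53-/- libraries. Again the 3 null libraries were above the 6 others. The null level was 1.81-fold that of p53+/+ cells (0.85 on the log2 scale, SE 0.17, adjusted p = 0.0289, edgeR), p53R248W/+ cells were lower than null cells (-0.82, SE 0.17, adjusted p = 0.0309), and the p53R248W/+ cells differed from p53+/+ cells by 0.03 (SE 0.17).

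Both differences kept their size when libraries were left out, but the calls did not hold. Without any 1 of p53+/+ replicate 2, p53+/+ replicate 3 or the 3 null libraries, neither Car2 nor Nfe2 was called against p53+/+ cells by edgeR, although the log2 differences stayed between 0.77 and 0.98 for Car2 and between 0.66 and 0.85 for Nfe2 over the 9 fits with 1 library left out. Nfe2 also missed the threshold without p53+/+ replicate 1 (adjusted p = 0.0555) or p53R248W/+ replicate 2 or 3 (0.0509 and 0.0506). Without both replicate 2 libraries that were high in granulocyte genes, Car2 stood at 0.82 (adjusted p = 0.141) and Nfe2 at 0.85 (adjusted p = 0.127). Calls over all genes against p53+/+ cells fell as well, from 442 with all 9 libraries to 59 in this fit. Without p53+/+ replicate 2 or 3 or p53-/- replicate 1, 2 or 3 they were 46, 37, 53, 39 and 103. Without p53R248W/+ replicate 1 they rose to 1485. The same all-gene counts go with the fits of other genes in that comparison below.

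Car1, the other carbonic anhydrase, lies 77.904 kb from Car2 on chromosome 3 (14766216 to 14808368, minus strand) and did not follow its neighbor. Car1 was at 32.8, 23.3 and 40.3 CPM in p53+/+ libraries, at 20.1, 65.9 and 23.6 CPM in p53R248W/+ libraries, and at 7.51, 28.3 and 16.1 CPM in p53-/- libraries. Replicate 2 was the highest of its genotype in both mutant groups and the lowest in the p53+/+ group, and the groups overlapped. The fitted difference of null from p53+/+ cells was -0.89 (SE 0.50, adjusted p = 0.306, edgeR), opposite in sign to that of Car2. Leaving out p53-/- replicate 2 gave -1.44 (adjusted p = 0.180), and leaving out p53-/- replicate 1 gave -0.51 (adjusted p = 0.611). Car1 shares 219 bases with a processed pseudogene, Gm16399.

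Ratios of members within a library restate these values. Car2 with Car1 and Nfe2 with Gata1 were chosen because they had been seen to go opposite ways. Since null libraries were the highest for Nfe2 and the lowest for Gata1, that ratio had to be highest in null libraries, so the ratios are a description with no test. Pf4 with Ppbp, also drawn, was not such a pair. Both were below p53+/+ cells in null (log2 -0.24 and -2.01) and p53R248W/+ cells (-0.31 and -3.00). Log2 of Car2 over Car1 was 4.81, 5.02 and 4.10 in p53+/+ libraries, 5.36, 3.37 and 5.26 in p53R248W/+ libraries, and 7.38, 5.79 and 6.48 in p53-/- libraries. Log2 of Nfe2 over Gata1 was 5.0, 4.61 and 4.65 in p53+/+ libraries, 4.81, 4.19 and 5.16 in p53R248W/+ libraries, and 6.50, 6.60 and 5.99 in p53-/- libraries. In both ratios the 3 null libraries were above the 6 others. The mean difference of null from p53+/+ libraries was 1.91 for the first ratio and 1.61 for the second. Log2 of Pf4 over Ppbp was 3.65, 2.08 and 0.469 in p53+/+ libraries and 4.59, 3.92 and 3.70 in p53R248W/+ libraries. In p53-/- libraries it was 2.31, 3.73 and 3.08. For this ratio the p53R248W/+ libraries were above the p53+/+ libraries, narrowly at the nearest values, with a mean difference of 2.00.

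**Figure D2:**
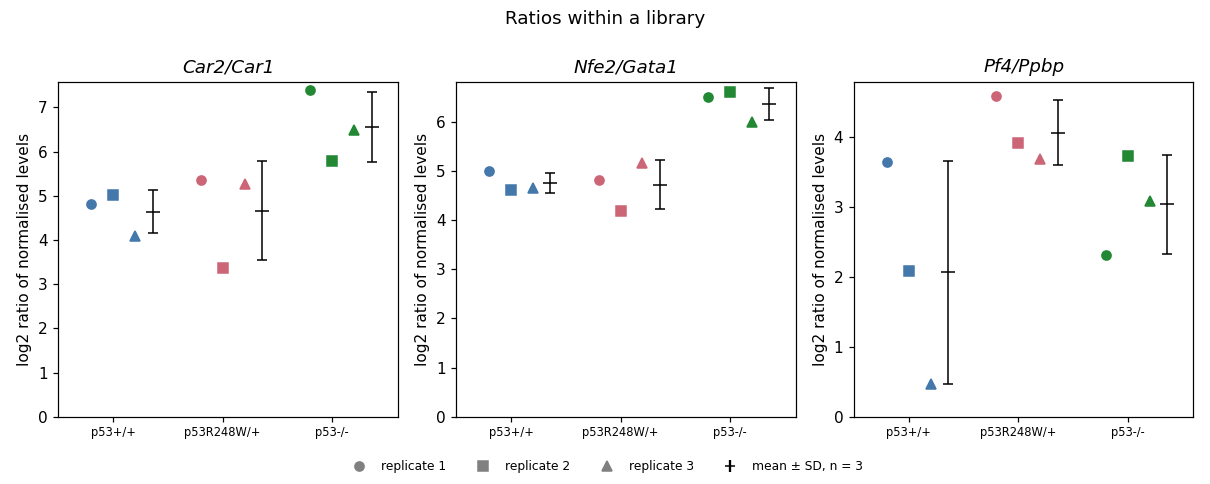
Log2 ratio of normalised levels within each library for 3 pairs of members, 1 point a library, with the mean and SD of each genotype (n = 3) and the axis starting at 0. For Car2/Car1 and Nfe2/Gata1 the p53-/- points lay above the rest, from 5.79 to 7.38 and from 5.99 to 6.60. For Pf4/Ppbp the p53+/+ points were spread from 0.469 to 3.65, and the p53R248W/+ points lay above them, from 3.70 to 4.59.

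Among the platelet genes, none rose or fell by the edgeR test. Pf4 (chromosome 5, 90772435 to 90773383, plus strand), platelet factor 4, was at 17.6, 34.3 and 28.1 CPM in p53+/+ libraries, at 22.2, 21.8 and 20.7 CPM in p53R248W/+ libraries and at 15.0, 38.4 and 14.0 CPM in p53-/- libraries. The null libraries held both the highest value and the 2 lowest values of the 9, and the groups overlapped. The difference of null from p53+/+ cells was -0.24 (SE 0.37, adjusted p = 0.730), and it turned to 0.01 without p53-/- replicate 1 and to 0.0042 without p53-/- replicate 3, and was -0.88 without p53-/- replicate 2.

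Ppbp lies 2371 bases from Pf4 on the same strand (90768518 to 90770063). It was at 1.31, 8.02 and 20.2 CPM in p53+/+ libraries, at 0.827, 1.35 and 1.51 CPM in p53R248W/+ libraries, and at 2.94, 2.80 and 1.57 CPM in p53-/- libraries, with counts of 26, 161 and 363 in the first group. The p53+/+ libraries thus differed among themselves by 15.5-fold, and the group overlapped both others. Against p53+/+ cells the fitted log2 difference of p53R248W/+ cells was -3.00 (SE 0.75), the largest of any member in any comparison. Its unadjusted p was 0.00185, which came to an adjusted p of 1.00 over all genes by edgeR and of 0.0379 by DESeq2. For null cells the difference was -2.01 (SE 0.72, adjusted p = 0.124 by edgeR and 0.0356 by DESeq2).

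Both differences rested in large part on 1 library. Without p53+/+ replicate 3 they were -1.93 (adjusted p = 1.00) and -0.94 (adjusted p = 0.539), while without p53+/+ replicate 1 the null difference was -2.53 and passed the threshold (adjusted p = 0.0255). Some other platelet genes were also at their highest in p53+/+ replicate 3, and 2 are given here, chosen after the values were seen. Tubb1, the platelet beta-tubulin, was at 6.92 CPM there and between 0.0457 and 1.51 CPM in the other 8 libraries, and Alox12, the platelet lipoxygenase, was at 5.13 CPM and between 0 and 1.26 CPM. The platelet list as a whole did not stand out there: of its 31 genes, 4 (Alox12, Clec1b, Itga2b and Tubb1) were at their highest of the 9 libraries and 5 (F2r, Gng11, Itgb3, Mmrn1 and P2rx1) at their lowest, and the list's sum of 1335 CPM was the lowest of the 9 (1335 to 2381 CPM). The part of platelet transcripts in these values was not tested.

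**Figure D3:**
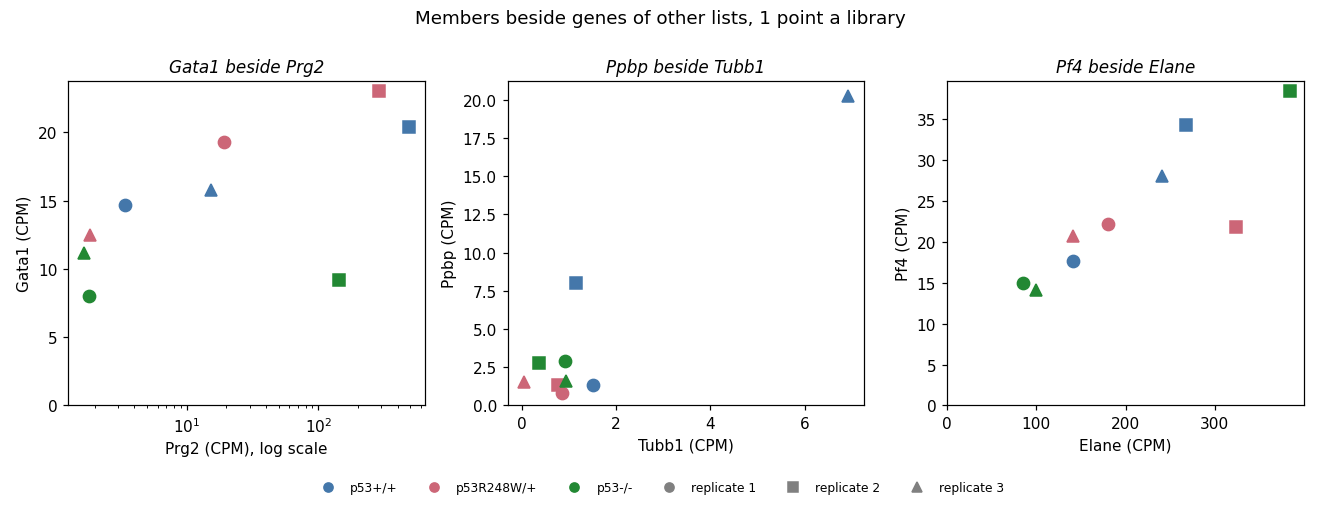
Normalised level (CPM) of Gata1, Ppbp and Pf4 against that of Prg2 (log axis), Tubb1 and Elane, 1 point a library, with genotype as color and replicate as symbol. p53+/+ replicate 3 stood alone in the Ppbp panel, at 20.2 CPM of Ppbp and 6.92 CPM of Tubb1, and p53-/- replicate 2 combined 142 CPM of Prg2 with a Gata1 level of 9.17 CPM.

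Gp1bb, glycoprotein Ib beta (chromosome 16, 18620317 to 18622403, minus strand), was at 3.33, 4.18 and 8.03 CPM in p53+/+, 4.49, 3.23 and 3.20 CPM in p53R248W/+ and 1.58, 2.21 and 2.01 CPM in p53-/- libraries. As for Gata1, the 3 null libraries were below the 6 others, and p53+/+ replicate 3 was the highest of all. The null level was 2.67-fold below that of p53+/+ cells (log2 fold change -1.41, SE 0.42, adjusted p = 0.0765 by edgeR and 0.0215 by DESeq2). Without p53+/+ replicate 3 the difference was -0.95 (adjusted p = 0.316). This value is uncertain for a further reason, because Gp1bb shares 1902 bases on the same strand with Sept5, which had between 5 and 63 counts per library, and 1938 bases with the annotated gene Gm49601, and how reads in shared bases were assigned is not given in the sources used here.

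Gp5, glycoprotein V (chromosome 16, 30307685 to 30310779, minus strand), went the other way. It was at 12.6, 15.6 and 14.7 CPM in p53+/+ libraries, at 14.2, 16.3 and 7.86 CPM in p53R248W/+ libraries, and at 22.3, 17.4 and 20.5 CPM in p53-/- libraries, the 3 highest of the 9. The difference of null from p53+/+ cells was 0.49 (SE 0.27, adjusted p = 0.307, edgeR). Gp1bb and Gp5, parts of 1 receptor, thus stood in opposite order between null and p53+/+ libraries, with neither past the threshold.

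The Gp5 sequence is shown because its 2 GATA motifs (AGATAA, minus strand, in capitals as the complement) lie 93 to 88 and 77 to 72 bases before the start (GRCm38.p6, chr16:30310782-30311031, minus strand, printed along the gene). For Pf4 the only match lies 36 to 41 bases after the start, and 24 bases around it are printed (chr5:90772461-90772484, plus strand).

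Gp5: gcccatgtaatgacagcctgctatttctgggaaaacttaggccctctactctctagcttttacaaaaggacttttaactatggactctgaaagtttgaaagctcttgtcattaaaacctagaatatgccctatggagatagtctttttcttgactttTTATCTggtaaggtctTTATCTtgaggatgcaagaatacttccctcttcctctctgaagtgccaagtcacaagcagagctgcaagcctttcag
Pf4: caggcagtgaAGATAAaacgtgct

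RefSeq promoter windows of 300 bases (250 before and 50 after the start) were given for 7 of the 10 members, all but Car1, Car2 and Nfe2. A GATA motif (AGATAA or TGATAA on either strand) was found in 3 of 7 windows and in 18.6% of all 32851 promoters. The CACCC box pattern (CCNCNCCC on either strand) was found in Gata1, Zfpm1 and Gp1bb (3 of 7), and in 49.5% of all promoters. These 3 genes had 3, 4 and 4 matches, of which the last 2 of Gp1bb overlap. The pattern leaves letters open (N), so not every match spells CACCC. Those of Zfpm1 include CCCCGCCC. E-boxes (CANNTG), sites of the kind bound by TAL1, were in 5 of 7 windows and in 72.3% of promoters, and the longer NF-E2 motif was in none of the 7 and in 0.423% of promoters. No member had both a GATA motif and a match to the CACCC box pattern in its window. These matches are descriptions of the letters in the windows.

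For each comparison, the members can be set against all genes. In p53R248W/+ against p53+/+ cells, 0 of 10 members were called by edgeR, with 1 (Ppbp) at an unadjusted p under 0.05, 1 (Ppbp) called by DESeq2 and 0 by limma-voom. Of all genes tested, edgeR and limma-voom each called 0.00792% and DESeq2 0.0475%, and 0.958% had an unadjusted p under 0.05. None of the 10 had libraries that did not overlap, against 5.04% of all genes. The median log2 difference of the members was -0.20, and that of all genes was 0.01.

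In p53-/- against p53+/+ cells, 2 of 10 members were called, both higher (Car2 and Nfe2), where 3.50% of all genes were called, 1.25% higher and 2.25% lower. DESeq2 called 5 members, adding Gata1, Ppbp and Gp1bb, all lower, and it called 12.2% of all genes. The libraries did not overlap for 6 of 10 members, with Zfpm1, Nfe2, Car2 and Gp5 higher and Gata1 and Gp1bb lower in null cells, against 31.4% of all genes. The members were therefore split, and their median log2 difference of -0.40 beside 0.00 for all genes describes neither direction.

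In p53R248W/+ against p53-/- cells, 2 of 10 were called, both lower (Car2 and Nfe2), where 3.44% of all genes were called, 2.34% higher and 1.10% lower. DESeq2 called 3 members, adding Gata1, and 10.5% of all genes. Libraries did not overlap for 7 of 10 members, against 24.2% of all genes: Gata1 and Gp1bb were higher and Zfpm1, Nfe2, Car2, Ppbp and Gp5 lower in p53R248W/+ cells. The comparisons share libraries, so that the differences from null cells are not independent of each other.

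**Figure D4:**
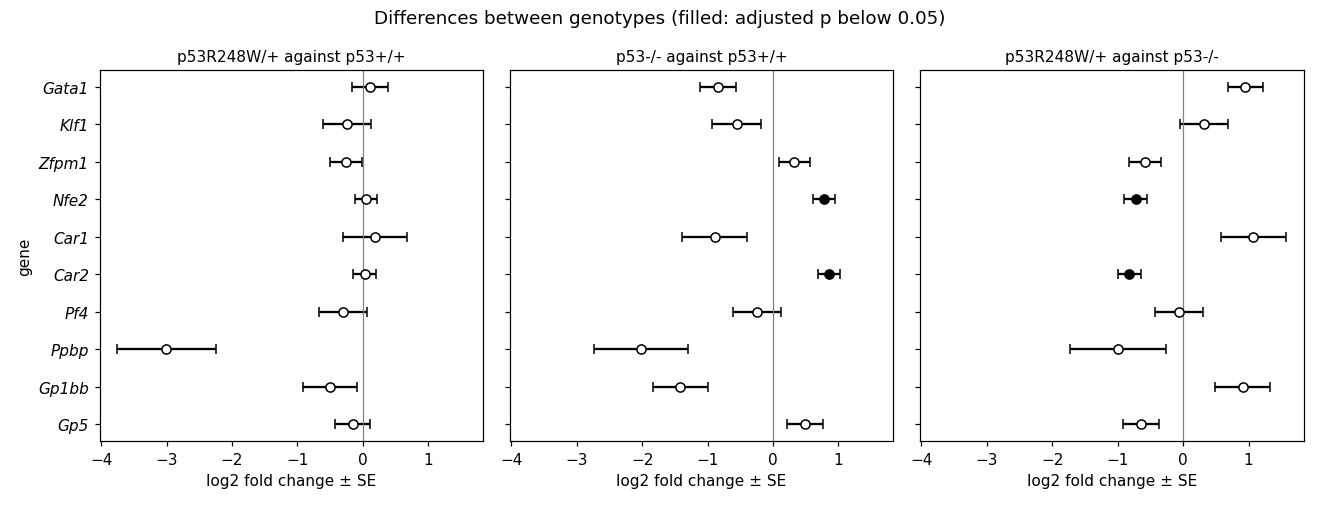
Log2 fold change with its standard error (bars) of the 10 genes in the 3 comparisons, with filled points where the adjusted p of the edgeR test was below 0.05. Filled points appear for Car2 and Nfe2 in both comparisons with p53-/- cells (0.85 and 0.78, -0.82 and -0.73) and nowhere in p53R248W/+ against p53+/+ cells.

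Further genes of the same programs were read from lists of red cell, platelet, regulator and progenitor genes. In p53R248W/+ against p53+/+ cells none of the 19 red cell, 31 platelet, 25 regulator and 13 progenitor genes tested was called by edgeR, DESeq2 or limma-voom, with 0, 2, 0 and 0 of them at an unadjusted p under 0.05 by edgeR. Calls were as rare over all genes, at 0.00792% by edgeR and limma-voom and 0.0475% by DESeq2. An unadjusted p under 0.05 was reached by 0.958% of all genes. In p53-/- against p53+/+ cells, the lists had 1, 3, 1 and 1 calls by edgeR, beside 3.50% of all genes, and 1, 7, 5 and 2 by DESeq2, beside 12.2%.

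Of the red cell genes, Tfrc, the transferrin receptor through which erythroblasts take up iron, fell in null cells. It was at 31.9, 44.7 and 40.8 CPM in p53+/+ libraries, at 30.8, 43.1 and 33.6 CPM in p53R248W/+ libraries, and at 11.6, 6.69 and 8.59 CPM in p53-/- libraries. The 3 null libraries were well below the rest. The log2 difference from p53+/+ cells was -2.13 (SE 0.25, adjusted p = 0.00312, edgeR), and the call held in 9 of 9 fits with 1 library left out and without both granulocyte-high replicate 2 libraries (adjusted p = 0.0116). Tfrc is also a general gene of proliferating cells. The defining genes Alas2 and Slc4a1 overlapped between null and p53+/+ libraries (1.39, SE 1.00, and -0.02, SE 1.37), and the median of the list was -0.02.

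Of the platelet list, 2 genes rose and 1 fell in null cells, with a median of 0.06. Trpc6, a cation channel, was at 22.0, 17.9 and 14.7 CPM in p53+/+ libraries and at 52.8, 33.0 and 82.0 CPM in p53-/- libraries (1.62, SE 0.32, adjusted p = 0.0266, edgeR). F2rl3, the thrombin receptor PAR4, was at 99.0, 75.7 and 71.4 CPM against 145, 163 and 139 CPM (0.86, SE 0.19, adjusted p = 0.0346). F13a1, the coagulation factor XIII A chain, which monocytes also make, was at 39.8, 61.4 and 47.7 CPM against 6.75, 6.05 and 10.02 CPM (-2.70, SE 0.42, adjusted p = 0.0124). The calls were kept in 5, 3 and 6 of the 9 fits with 1 library left out, the losses falling without p53+/+ replicate 2 (Trpc6, F2rl3) or 3 (all 3), without p53R248W/+ replicate 3 (F2rl3) and without p53-/- replicate 1 (all 3), 2 (F2rl3, F13a1) or 3 (Trpc6, F2rl3). Without both granulocyte-high replicate 2 libraries F13a1 was still called (adjusted p = 0.00788), while Trpc6 (0.0867) and F2rl3 (0.144) were not.

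The defining platelet genes did not pass the test in this comparison. Itga2b, the integrin CD41, was -0.51 (SE 0.18, adjusted p = 0.116, edgeR), Gp1ba 0.0014 (SE 0.42), Gp9 0.31 (SE 0.24), Vwf -0.11 (SE 0.30), Treml1 -0.17 (SE 0.40) and Clec1b 0.30 (SE 0.79) on the log2 scale. Gp1ba and Gp9 encode the partners of Gp1bb and Gp5 in the von Willebrand factor receptor, and both overlapped between the genotypes. The 4 subunit genes of that receptor therefore had fitted differences from -1.41 (Gp1bb) to 0.49 (Gp5), none of them called by edgeR.

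Of the regulators, Fli1, an ETS factor of megakaryocytes and stem cells, rose in null cells. It was at 140, 157 and 133 CPM in p53+/+ libraries, at 153, 154 and 160.2 CPM in p53R248W/+ libraries and at 227, 221 and 232 CPM in p53-/- libraries (0.66, SE 0.14, adjusted p = 0.0343, edgeR), and the call was kept in 1 of 9 fits with 1 library left out, that without p53R248W/+ replicate 1, and was lost without both granulocyte-high libraries (adjusted p = 0.131). Gfi1b, a repressor needed in both lineages, was at 47.0, 44.9 and 41.5 CPM in p53+/+ libraries and at 75.5, 67.9 and 133 CPM in p53-/- libraries (1.05, SE 0.26) and just missed the threshold (adjusted p = 0.0506). Tal1 was 0.69 (SE 0.22, adjusted p = 0.0909), and Gata2 and Runx1, both used by stem cells, were 0.22 (SE 0.24) and 0.04 (SE 0.17). The list's median was 0.08.

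Of the 13 progenitor genes, Mfsd2b fell from 20.7, 22.7 and 21.7 CPM in p53+/+ libraries to 8.81, 7.14 and 7.56 CPM in p53-/- libraries (-1.47, SE 0.28, adjusted p = 0.0242, edgeR). It encodes a sphingosine-1-phosphate exporter of red cells and platelets. The call was kept in 4 of 9 fits with 1 library left out and was lost without p53+/+ replicate 2 or 3 or any 1 of the null libraries, and without both granulocyte-high libraries (adjusted p = 0.0540). Epor, the erythropoietin receptor, was -0.61 (SE 0.39, adjusted p = 0.372). The median of the list was 0.25.

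**Figure D5:**
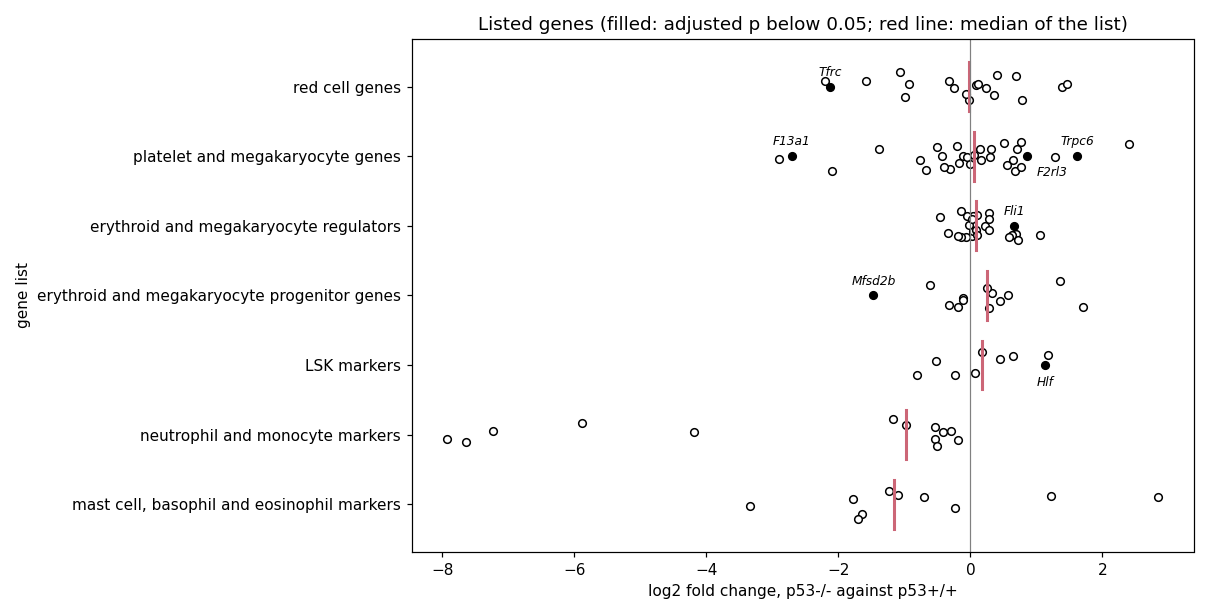
Log2 fold change of p53-/- against p53+/+ cells for each tested gene of 7 lists, 1 point a gene (vertical jitter is random), with filled and named points where the adjusted p was below 0.05 and a red line at each list's median. The called genes lay on both sides of 0, from F13a1 (-2.70) to Trpc6 (1.62), and the medians of the 4 erythroid and megakaryocyte lists lay between -0.02 and 0.25.

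In p53R248W/+ against p53-/- cells, Tfrc, F13a1 and Mfsd2b were higher (2.00, 2.88 and 1.36, adjusted p = 0.00302, 0.00662 and 0.0283, edgeR) and Trpc6 and F2rl3 lower (-1.88 and -0.91, adjusted p = 0.0141 and 0.0283). Mfsd2b was not called by limma-voom, which called 2.64% of all genes in this comparison. Meis1, a homeobox factor of stem cells and megakaryocytes, was also lower in p53R248W/+ than in null cells (-0.74, SE 0.17, adjusted p = 0.0366). The calls of Tfrc and F13a1 were kept in 9 of 9 fits with 1 library left out, and those of Trpc6, Mfsd2b, F2rl3 and Meis1 in 7, 5, 4 and 3. The losses fell without p53R248W/+ replicate 2 or 3, without a null library and, for Meis1, also without p53+/+ replicate 2. Without both granulocyte-high libraries, Tfrc, F13a1 and Trpc6 were still called (adjusted p = 0.0138, 0.00812 and 0.0310), and F2rl3, Mfsd2b and Meis1 were not (0.151, 0.179 and 0.204).

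Genes of the LSK list and of other cell types were read as well. Hlf, a stem cell gene of the LSK list, was at 205, 192 and 118 CPM in p53+/+ libraries and at 351, 362 and 418 CPM in p53-/- libraries (1.14, SE 0.22, adjusted p = 0.0242, edgeR), the only call of 9 LSK genes in that comparison. In p53R248W/+ libraries Hlf was between 118 and 163 CPM, lower than in null cells (-1.41, SE 0.22, adjusted p = 0.00885). This second call was kept in 9 of 9 fits with 1 library left out and without both granulocyte-high libraries (adjusted p = 0.0448), where the first was lost (0.0673).

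All 13 neutrophil and monocyte genes were tested, and their sum was between 2997 and 8478 CPM in p53+/+, 4450 and 9969 CPM in p53R248W/+ and 2202 and 2615 CPM in p53-/- libraries. Without both granulocyte-high libraries the sums were 2997 and 4206 CPM in p53+/+ and 5725 and 4450 CPM in p53R248W/+ libraries. None of the 13 was called against p53+/+ cells by edgeR, but all 13 fitted differences were below 0 (median -0.98), and 7 had an unadjusted p under 0.05, as 23.4% of all genes did. DESeq2 called 2 of them lower, the fit with the replicate number as a block 6, and the fit without both granulocyte-high libraries 1. Of all genes, these 3 fits called 12.2%, 6.99% and 0.468%. Mpo and Ctsg, granule enzymes of granulocyte precursors, were higher in p53R248W/+ than in null cells (1.76 and 1.58, adjusted p = 0.00778 and 0.0281, edgeR), and the block raised these 2 calls of the list to 7. Over all genes in that comparison, the calls were 3.44% without the block and 5.32% with it.

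The mast cell tryptase Tpsb2 was at 2.57, 0 and 0.892 CPM in p53+/+ libraries, at 0.359, 0.0481 and 0.183 CPM in p53R248W/+ libraries and at 5.11, 11.4 and 8.45 CPM in p53-/- libraries (adjusted p = 0.0281 for p53R248W/+ against p53-/- cells, edgeR). Its list did not share this order: 2 of the 10 mast cell, basophil and eosinophil genes were higher and 8 lower in null than in p53+/+ cells (median -1.16), and 8 were higher and 2 lower in p53R248W/+ than in null cells (median 1.00). Of the T and NK cell list, Nkg7 alone was called by edgeR, higher in p53R248W/+ than in null cells (0.69, SE 0.17, adjusted p = 0.0479). Neither Tpsb2 nor Nkg7 was called by limma-voom in that comparison, where it called 2.64% of all genes. With 1 library left out, the call of Mpo was kept in 9 of 9 fits and those of Ctsg, Tpsb2 and Nkg7 in 6, 4 and 0, while that of Hlf against p53+/+ cells was kept in 4 and lost without p53+/+ replicate 2 or 3 or any 1 of the null libraries. The losses of Ctsg fell without p53R248W/+ replicate 2 or p53-/- replicate 1 or 3, and those of Tpsb2 without p53R248W/+ replicate 2 or 3 or any null library. Without both granulocyte-high libraries, Mpo and Tpsb2 were still called (adjusted p = 0.0187 and 0.00948), and Ctsg (0.0968) and Nkg7 (0.141) were not. The part of a changed mix of progenitors in the levels of Car2, Nfe2 and Gata1 was not tested.

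Across the 9 libraries, Car2 and Nfe2 varied together (r = 0.93 between log2 levels), and after the genotype means were removed r was 0.55. Klf1 and Car1 varied together both with (0.84) and without (0.81) the genotype means. Gata1 and Car2 ran opposite to each other (-0.87), with -0.46 within genotypes. These values share the libraries' depth and normalisation and are given as a description over 9 points. Over 11331 genes with a mean log2 CPM of at least 1, the genes whose log2 levels were most like Gata1 were F13a1 (r = 0.96, 0.92 within genotypes), Slpi (0.95) and Cops7b (0.95). For Klf1 they were Rasal2 (0.90), Thoc5 (0.87) and Depdc7 (0.87), for Pf4 they were Elane (0.88), Zfhx2 (0.88) and Clec16a (0.84), and for Nfe2 they were Ubl7 (0.99), Pdcd1lg2 (0.98) and Tpst2 (0.98). Elane, neutrophil elastase, was at 384 CPM in p53-/- replicate 2, where Pf4 was at its highest (38.4 CPM), and at 85.2 and 99.8 CPM in the other null libraries, where Pf4 was at its lowest.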

How the data were processed

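LSK RNA was made into libraries with the SMART-Seq v4 Ultra Low Input kit (per the labels) and sequenced as RNA-seq, with 9 libraries in 3 genotypes. The deposited table holds whole-number read counts per gene for each library and a gene length in bases, another quantity that the authors added. The submitters' processing notes name STAR 2.5.2b, featureCounts in Subread 1.5.0, edgeR and mm10 (GRCm38), with no role or order, and the annotation, strand setting and treatment of shared reads are not given in the sources used here. Genes left out of the table were not analysed here. The 2 H3K27me3 ChIP-seq libraries of the series were not used here.

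Groups and replicate numbers came from the sample titles. Counts were tested with edgeR 4.0.16 (R 4.3.3): genes were kept by filterByExpr (12625 of 12647), scaled with TMM factors (0.935 to 1.04), and fitted by the quasi-likelihood method with genotype as the only term over all 9 libraries. Adjusted p-values are Benjamini-Hochberg values over all genes tested, and a gene was called at an adjusted p below 0.05. A standard error is the log2 fold change divided by the square root of the F statistic. CPM are counts scaled to a common library size with the TMM factors, and levels between genes were compared per kilobase of the deposited length. For likeness, Pearson's r was taken between log2 CPM with a prior count of 2. The same results were computed with limma-voom (limma 3.58.1) and DESeq2 1.42.0, with edgeR under DESeq2 or upper-quartile scaling, no filter, at least 10 counts in every library, a replicate block, the 6 libraries of a comparison alone and 1 library left out at a time. The fit without both replicate 2 libraries, the ratios and the genes set beside Gata1 and Ppbp were chosen after the data were seen. The code was tested on simulated data with known changes.

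The named genes were all 10 members, defining genes of the lists whatever their values (of these, the hemoglobins and Gp6 were not analysed here, and some others are not reported here), up to 3 called genes per list and comparison with the largest changes, and the 3 genes most like each of Gata1, Klf1, Pf4 and Nfe2. The members and the lists were chosen with earlier results of these data known. B cell, T and NK cell and endothelial lists were also read: against p53+/+ cells none of their 7, 7 and 5 tested genes was called in p53-/- cells by edgeR, DESeq2 or limma-voom (2, 2 and 1 at an unadjusted p under 0.05 by edgeR). Over all genes, edgeR called 3.50%, DESeq2 12.2% and limma-voom 2.35%, and 23.4% had an unadjusted p under 0.05. In p53R248W/+ against p53-/- cells, DESeq2 called 2, 2 and 1 of these genes higher and 0 lower, beside 10.5% of all genes. There edgeR called 0, 1 and 0 of them, beside 3.44%. Coordinates are GRCm38 positions of GENCODE M21, and promoter sequences are RefSeq's for GRCm38.p6.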

Additional observations from a re-analysis of the deposited data

How the results depend on the processing

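In p53-/- against p53+/+ cells, the 2 called members became 5 with DESeq2, 0 without p53+/+ and p53R248W/+ replicate 2 together, and between 0 and 2 with 1 library left out (0 without p53+/+ replicate 2 or 3 or p53-/- replicate 1, 2 or 3; those called higher likewise 0 to 2). In p53R248W/+ against p53-/- cells, the 2 calls became 0 with the 6 libraries alone, 0 without both replicate 2 libraries and between 0 and 2 with 1 left out (0 without p53R248W/+ replicate 2 or 3 or any null library), and DESeq2 called 1 member (Gata1) higher. In p53R248W/+ against p53+/+ cells DESeq2 called 1 member in place of 0. Of the list genes, 13 were called in at least 1 comparison, and this became 29 with DESeq2, 26 with the replicate block, 24 with 6 libraries and 5 to 25 with 1 library left out (25 without p53R248W/+ replicate 1, 5 without p53-/- replicate 1 or 3). Over all genes, calls in p53-/- against p53+/+ and p53R248W/+ against p53-/- cells went from 442 and 434 to 1542 and 1326 with DESeq2, to 882 and 672 with the block, to 894 and 208 with 6 libraries and to 59 and 77 without both replicate 2 libraries, and with 1 library left out ranged from 37 to 1485 and from 77 to 1559 (1485 and 1559 without p53R248W/+ replicate 1). Without p53+/+ replicate 2 or 3 or p53-/- replicate 1, 2 or 3, the first count was 46, 37, 53, 39 and 103, and without p53R248W/+ replicate 2 or 3 or p53-/- replicate 1, 2 or 3 the second was 78, 77, 164, 100 and 102. The cause was not tested.

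Signs turned for 6 members. For p53R248W/+ against p53+/+ cells, Car1 (0.19) was -0.0130 with limma-voom, -0.10 with the replicate block, -0.75 without both replicate 2 libraries and between -0.55 and 0.47 with 1 library left out. Over the same fits Car2 ran from -0.0640 to 0.156, Nfe2 from -0.0780 to 0.123, Gata1 from -0.0915 to 0.320 and Gp5 from -0.371 to 0.0947. Pf4 ran from -0.877 to 0.00604 in p53-/- against p53+/+ cells and from -0.32 to 0.57 in p53R248W/+ against p53-/- cells, where it was 0.0834 with limma-voom and 0.0938 with the block. DESeq2 or upper-quartile scaling and no filter changed no member's call. Deviations from the genotype mean correlated at 0.36, 0.54 and 0.04 between same-numbered p53R248W/+ and p53+/+ libraries. Differently numbered libraries of these genotypes correlated at between -0.48 and 0.0093. In the other comparisons same-numbered libraries correlated at between -0.11 and 0.13. The labels do not say whether equal numbers share an animal, litter or day, and a shared handling of p53+/+ and p53R248W/+ libraries was not tested. With the replicate block, Car2 and Nfe2 were called in both comparisons with null cells and no other member was. Depth limits Ppbp, Gp1bb and Klf1, whose lowest library counts were 23, 29 and 58.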
